A study of Mus musculus with 14 samples.

Results

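Mouse embryonic fibroblasts carrying Cdk9-DN were compared with cells carrying the control vector at day 10 after infection, the last day sampled. The comparison took all libraries labelled for that day, 2 with Cdk9-DN and 2 with the control vector, 4 of the 14 libraries of the series. Both groups listed 23699 of the 26962 genes found in the series. The series asked whether release of paused RNA polymerase is a limiting step on the way from fibroblasts to pluripotent cells. Every group came from fibroblasts of strain OG2/129SV, a line that carries a green fluorescent reporter under Oct4 sequence, and every group also received Oct4, Sox2, Klf4 and c-Myc. The Cdk9-DN cells received Cdk9-DN with these factors, and the control cells received a control vector in its place. Both were grown in embryonic stem cell medium with serum and LIF, and libraries of day 4 and day 5, again 2 per vector on each day, served as the earlier points. The kind of vector, the sorting of cells and the number of cultures are not given in the sources used here, so the p-values reflect no more than the spread from library to library, which may be technical.

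Cdk9 is the kinase of P-TEFb, a complex with cyclin T that phosphorylates RNA polymerase II and the pausing factors NELF and DSIF and thereby lets polymerase paused near a promoter enter productive elongation. A dominant-negative form, which the name Cdk9-DN denotes, competes with the natural kinase for its partners. During reprogramming to pluripotency, fibroblasts lose their mesenchymal identity, gain epithelial junctions and keratins, and only later switch on the pluripotency network. Genes with short-lived transcripts, such as those that respond to growth factor signals, are known to be sensitive to loss of Cdk9 activity.

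Promoters of 6 genes that stand for the groups described below are shown first. They span 250 bases before to 50 bases after the annotated start, 5′ to 3′ on the strand of the gene, and come from RefSeq on build GRCm38.p6. Capitals mark matches, on either strand, to TGANTCA (bound by AP-1), TATAAA (the TATA box), GGAATG (bound by TEAD factors), CCAAT (bound by NF-Y), TTTCCCGC or TTTGGCGC (both bound by E2F). A match describes the letters and not a bound site. Krt18 (chr15:102027966-102028265, plus strand) and Cldn4 (chr5:134946885-134947184, minus strand) are epithelial genes that were lower with Cdk9-DN. Cyr61, now named Ccn1 (chr3:145649936-145650235, minus strand), is a growth factor response gene that was lower. Foxd1 (chr13:98353995-98354294, plus strand), the replication gene Mcm6 (chr1:128359656-128359955, minus strand) and the histone gene Hist1h3b, now H3c2 (chr13:23752095-23752394, plus strand), were higher.
Krt18: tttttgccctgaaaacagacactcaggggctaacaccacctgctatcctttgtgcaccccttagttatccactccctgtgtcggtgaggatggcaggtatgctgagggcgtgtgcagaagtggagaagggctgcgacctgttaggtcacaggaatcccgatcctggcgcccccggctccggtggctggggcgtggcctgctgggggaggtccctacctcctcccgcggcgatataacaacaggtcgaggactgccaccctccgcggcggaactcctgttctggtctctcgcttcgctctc
Cldn4: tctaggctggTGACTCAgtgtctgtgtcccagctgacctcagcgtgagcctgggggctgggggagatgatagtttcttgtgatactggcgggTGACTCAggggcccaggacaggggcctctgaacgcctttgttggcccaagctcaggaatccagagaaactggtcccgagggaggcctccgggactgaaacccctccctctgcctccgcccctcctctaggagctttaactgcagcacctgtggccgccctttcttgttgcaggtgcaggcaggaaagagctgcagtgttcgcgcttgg
Cyr61: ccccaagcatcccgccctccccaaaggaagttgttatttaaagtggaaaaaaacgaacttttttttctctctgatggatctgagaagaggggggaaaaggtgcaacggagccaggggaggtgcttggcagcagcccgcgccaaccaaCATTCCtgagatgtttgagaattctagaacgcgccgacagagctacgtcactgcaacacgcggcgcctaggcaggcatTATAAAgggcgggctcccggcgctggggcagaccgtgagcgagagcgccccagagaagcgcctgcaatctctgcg
Foxd1: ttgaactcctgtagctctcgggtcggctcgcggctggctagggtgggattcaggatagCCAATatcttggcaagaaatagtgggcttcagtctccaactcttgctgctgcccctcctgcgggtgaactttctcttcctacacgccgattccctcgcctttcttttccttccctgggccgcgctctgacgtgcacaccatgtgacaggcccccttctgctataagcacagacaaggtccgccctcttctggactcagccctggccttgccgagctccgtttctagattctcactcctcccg
Mcm6: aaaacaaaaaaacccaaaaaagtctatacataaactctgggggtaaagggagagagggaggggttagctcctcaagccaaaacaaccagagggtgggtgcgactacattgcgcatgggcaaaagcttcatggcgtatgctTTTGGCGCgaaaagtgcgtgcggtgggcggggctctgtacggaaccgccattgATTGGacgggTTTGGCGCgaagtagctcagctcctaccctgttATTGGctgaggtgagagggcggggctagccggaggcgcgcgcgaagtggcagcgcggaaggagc
Hist1h3b: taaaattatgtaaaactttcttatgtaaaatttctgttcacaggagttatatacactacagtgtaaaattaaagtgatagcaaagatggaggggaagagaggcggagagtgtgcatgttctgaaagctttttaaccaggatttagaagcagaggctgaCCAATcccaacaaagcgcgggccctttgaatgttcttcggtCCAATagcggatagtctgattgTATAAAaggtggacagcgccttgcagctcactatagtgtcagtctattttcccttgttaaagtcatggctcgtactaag

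Over 32851 promoters of the same length, TATAAA was present in 13.6%, TGANTCA in 7.81%, GGAATG in 14.7%, CCAAT in 37.4%, TTTCCCGC in 1.07% and TTTGGCGC in 0.514%. Krt18 held none of these in its window, and Cldn4 held TGANTCA at 2 places. TGANTCA was in 1 of the 7 tested epithelial genes with a promoter and in 2 of the 18 immediate early genes with one. Of the 36 tested core histone genes with a promoter, 23 held TATAAA and 28 held CCAAT. Of the 10 replication genes with a promoter, 3 held TTTCCCGC and 3 held TTTGGCGC. A promoter was found for 1942 of 2605 tested protein-coding genes (74.5%), and promoters were not compared between the higher and the lower genes.

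The depth of the day 10 libraries, derived from the deposited bounds, was 11.4 to 13.0 M fragments. They listed 23236 to 23483 genes, of which 5128 to 5292 stood at 1 FPKM or more (fragments scaled by transcript length and library depth). Between 49.97% and 56.0% of the summed FPKM came from the 10 top genes. All 4 libraries held a value for 89.9% of the 829 single-exon protein-coding genes but for 27.6% of the 987 that have at least 17 exons. Cdk9, Pou5f1 (Oct4) and Klf4 were listed in 0 libraries under these symbols, so Cdk9 itself and these factors were not analysed here. Myc and Sox2 had a day 10 value in control replicate 2 alone, at 746 and 484 FPKM. Hexim1, an inhibitor of P-TEFb, had 11.1 and 11.6 FPKM with Cdk9-DN, against 14.7 and 12.3 FPKM in control cells (log2 difference -0.22, adjusted p = 0.108).

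Day 10 divided the transcriptome more widely than the earlier days. Of 5740 genes tested, 1658 (28.9%) passed the test, 834 of them higher (14.5%) and 824 lower (14.4%) with Cdk9-DN. An unadjusted p under 0.05 was found for 2297. Protein-coding genes made up 1042 of these calls, or 40.0% of 2605 tested, with 522 higher (20.0%) and 520 lower (20.0%). The larger differences lay on the lower side: 155 protein-coding genes were lower and 68 higher by more than 1 on the log2 scale. Groups did not overlap for any called gene in the libraries that listed it. Where groups are described below as standing apart, this thus adds nothing to a call. Among genes listed in all 4 libraries, groups did not overlap for 60.5%, or 78.8% of protein-coding genes. The same test called 10 of 5902 genes (0.169%) at day 5 and 2 of 5950 (0.0336%) at day 4. The count of calls was 938, 980 and 930 without Cdk9-DN replicate 1, Cdk9-DN replicate 2 and control replicate 1 of day 10. The split of calls moved with scaling, 47.7% higher under median-of-ratios scaling and 58.9% higher under quantile normalization, while the median of all genes shifted by 0.05 or less. Log2 differences here are Cdk9-DN minus control on log2(FPKM + 1), which understates the change of genes with low values.

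**Figure D1:**
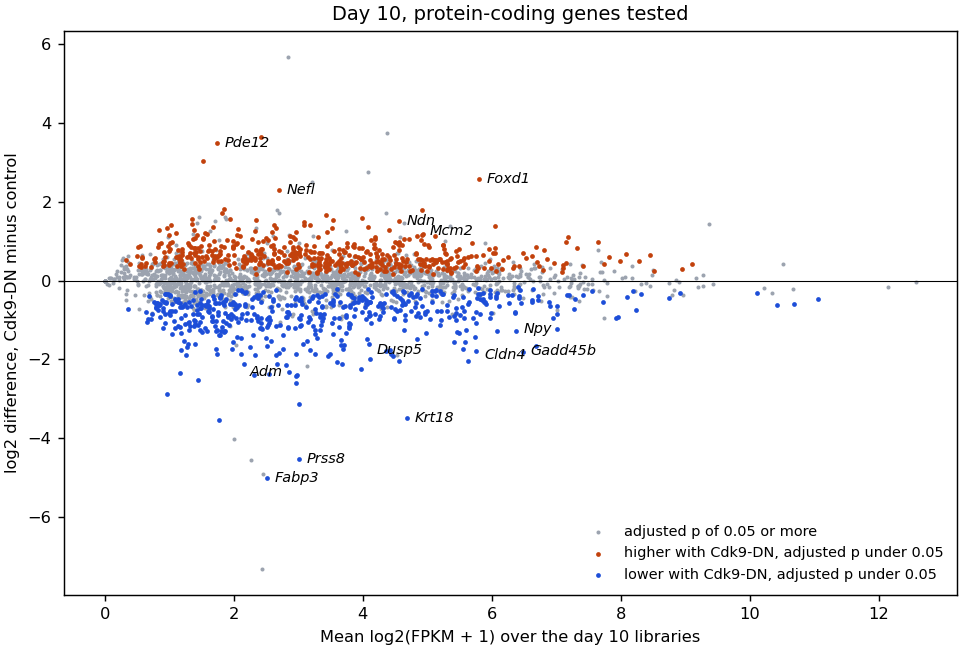
Each point is 1 protein-coding gene tested at day 10, with its mean log2(FPKM + 1) over the day 10 libraries on the x axis and its log2 difference, Cdk9-DN minus control, on the y axis. Orange points were higher (522 genes) and blue points lower (520 genes) with Cdk9-DN at an adjusted p under 0.05, and grey points did not pass. Krt18 and Foxd1 stand far from 0 on opposite sides, and the points for Pde12, Fabp3 and Prss8 include groups listed at 0.

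Gene types differed in how often they were called. Processed pseudogenes, copies of messenger RNAs that share sequence with their parent genes, gave 393 calls of 1432 tested, and reads may be split between copy and parent. Small RNA genes gave 25 calls of 540, of which 20 had a group at 0. Over all types, 54 called genes had a group at 0, 10 of them protein-coding. Among protein-coding genes, those with a single exon were 16.5% of the 522 higher genes and 6.54% of the 520 lower genes, against 9.25% of all tested. The 86 single-exon higher genes were not separated from the 26 core histone genes called higher, so 1 family may hold part of this share. The locus length was close, with a median of 11748 bases for the higher and 11766 bases for the lower genes, against 12577 bases for all.

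Most epithelial genes that could be tested were lower with Cdk9-DN. The list has 47 members, of which 27 were found in the series and 18 were listed in both day 10 groups. Of 16 epithelial junction and keratin genes tested, 15 passed as lower and 0 as higher, with a median log2 difference of -1.06. Over all protein-coding genes, 20.0% were lower and the median was 0.04. A member that reached the filter only through the day 10 control libraries, such as Prss8 below, could pass only as lower. Such members were not counted, and the comparison with 20.0% does not allow for them. Krt18, Krt8, Cldn3, Cldn4, Cldn6, Cldn9 and Perp exceeded 1 FPKM in both Cdk9-DN libraries, so the filter did not set their direction. The summed level of the 10 members listed in all 4 libraries was 272 and 268 FPKM with Cdk9-DN, against 610 and 606 FPKM in control cells. In bulk RNA, fewer epithelial cells and less of these transcripts per cell cannot be told apart. The members included keratins, claudins, which seal tight junctions, and desmosome and polarity genes. Leaving out any 1 day 10 library left 10 to 13 lower of 11 to 15 tested.

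Krt18, a keratin of simple epithelia, had the strongest difference of the listed epithelial genes with a value above 0 in both groups. It had 7.10 and 6.31 FPKM in the Cdk9-DN libraries, against 86.6 and 83.8 FPKM in the control libraries (log2 difference -3.49, SE 0.131, adjusted p = 8.33e-06), a level 12.7 times as high in control cells. Both control libraries lay far above both Cdk9-DN libraries. Krt8, its pairing partner in keratin filaments, stood at 97.9 and 98.2 FPKM with Cdk9-DN, against 189 FPKM in the 1 control library that listed it (log2 difference -0.94, adjusted p = 0.00223). The deficit of Krt8 was thus smaller on this scale than that of Krt18, a contrast between the genes that was not tested.

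The claudins followed. Cldn9 had 2.38 and 2.49 FPKM with Cdk9-DN, against 16.9 and 17.3 FPKM in control cells (log2 difference -2.40, adjusted p = 1.3e-05). Cldn4 had 29.0 and 27.3 FPKM with Cdk9-DN, against 102 and 98.0 FPKM in control cells (log2 difference -1.79, adjusted p = 1.3e-05). In both genes the replicates of each vector lay close together and the groups were apart. Cldn6 had 3.58 and 3.03 FPKM with Cdk9-DN, against 24.8 FPKM in 1 control library (log2 difference -2.58, adjusted p = 4.03e-05). Cldn3 followed the same direction at 29.1 and 24.9 FPKM with Cdk9-DN, against 82.0 and 80.2 FPKM in control cells (log2 difference -1.56, adjusted p = 0.00122).

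An exact 0 in these tables can be a failed estimate, and 119 protein-coding genes were at 0 in at least 1 library and at 5 FPKM or more in another of the 12. Prss8, an epithelial serine protease, was listed at 0 in 1 Cdk9-DN library and at 21.8 and 21.9 FPKM in the control libraries. It was also listed at 0 in the libraries of both vectors at days 4 and 5, and it overlaps Myst1, so its reads may be shared. Pkp2, a desmosomal plakophilin, had 6.96 FPKM in 1 Cdk9-DN library, against 10.8 and 12.4 FPKM in control cells, and did not pass (log2 difference -0.66, adjusted p = 0.0865). Perp, a desmosome-associated membrane protein, had 172 and 176 FPKM with Cdk9-DN, against 254 and 253 FPKM in control cells (log2 difference -0.54, adjusted p = 0.00023).

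**Figure D2:**
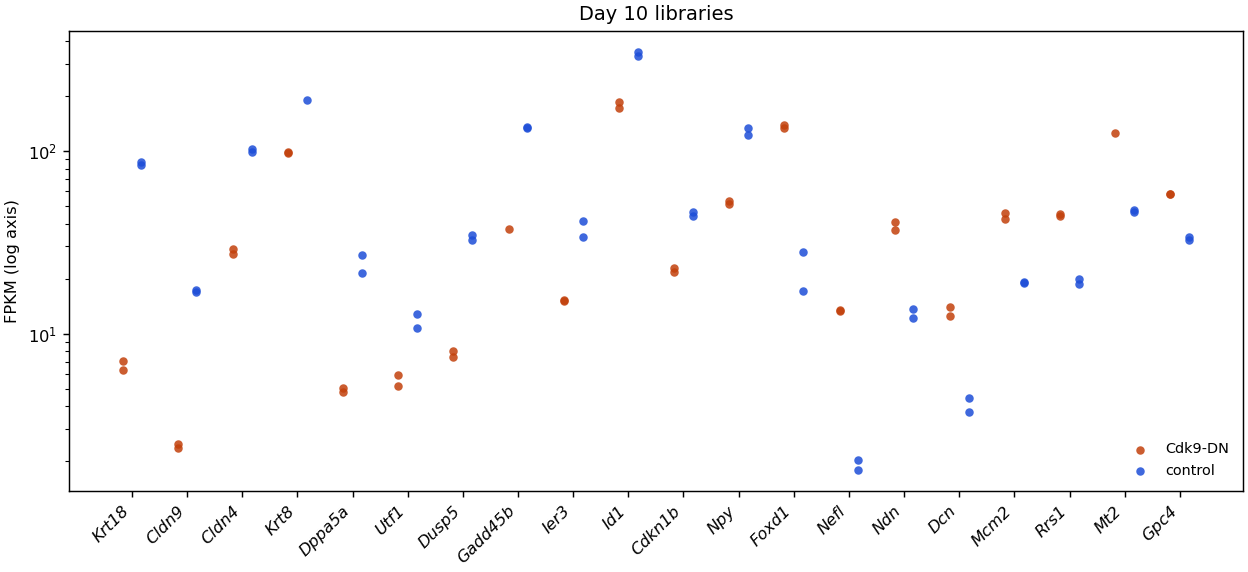
FPKM on a log axis for 20 genes in the day 10 libraries, with Cdk9-DN in orange on the left and control in blue on the right of each gene. Each point is 1 library, and a library that did not list a gene has no point. The groups did not overlap in any gene shown, from 7.10 and 6.31 against 86.6 and 83.8 FPKM for Krt18 to 138 and 133 against 17.1 and 27.8 FPKM for Foxd1.

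Several of the 15 lowest protein-coding genes were secreted or membrane proteins outside that list. Atp1b1, the beta subunit of the sodium pump, had 2.16 and 2.59 FPKM with Cdk9-DN, against 16.8 and 17.5 FPKM in control cells (log2 difference -2.43, SE 0.225, adjusted p = 0.000833). Gcnt3, which branches mucin sugars, had 1.41 and 1.76 FPKM with Cdk9-DN, against 11.8 and 12.7 FPKM in control cells (log2 difference -2.36, SE 0.086, adjusted p = 7.58e-06). Each vector's libraries lay together in both, and the groups were apart, as the rule that named these genes required. Adm, the hormone adrenomedullin, had 2.53 and 2.01 FPKM with Cdk9-DN, against 14.8 and 15.5 FPKM in control cells (log2 difference -2.31, adjusted p = 0.00278). Spink3, a trypsin inhibitor, was at 0 and 0.312 FPKM with Cdk9-DN, against 6.39 and 4.74 FPKM in control cells (log2 difference -2.51, adjusted p = 7.87e-05). Its differences from days 5 and 4 equalled this value, and it had no value in 4 of the alternative settings. The others among the 15 lowest were Psors1c2, Apoc1, Ucn3 (a urocortin), Rnd1 (a small GTPase), Dusp9 and Lypd5, with log2 differences of -2.15 to -1.85, besides Dppa5a and Dusp5 below. Fabp3 was listed at 0 in both Cdk9-DN libraries and at 32.2 and 30.5 FPKM in the control libraries. Its values at days 4 and 5 ranged from 0 to 10.5 FPKM, with 0 and a higher value within single groups, and its adjusted p of 0.0498 was lost without any 1 day 10 library (0.134 to 0.152).

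Pluripotency genes were mostly lower, with a count of calls that depended on the processing. Of 13 tested, 8 passed as lower and 1 as higher, with a median of -0.72, and 4 did not pass. Over all protein-coding genes, 20.0% were lower. The lower members were 3 of 13 with a pseudocount of 0.1 and 5 of 13 with no filter on low values. They were 4 of 8 with at least 5 FPKM in 2 libraries and 3 of 11 from the day 10 libraries alone. The medians in these settings lay between -0.87 and -0.62. The summed level of the 11 members listed in all 4 libraries was 50.9 and 58.0 FPKM with Cdk9-DN, against 103 and 94.3 FPKM in control cells. Dppa5a, an RNA-binding protein of embryonic stem cells, had 4.78 and 5.06 FPKM with Cdk9-DN, against 26.8 and 21.4 FPKM in control cells (log2 difference -2.08, SE 0.114, adjusted p = 4.87e-05). Utf1, which marks undifferentiated cells, had 5.14 and 5.92 FPKM with Cdk9-DN, against 12.9 and 10.7 FPKM in control cells (log2 difference -0.97, adjusted p = 0.005), a call lost with a pseudocount of 0.1 (adjusted p = 0.32). Both control libraries were the higher ones in each gene. Sox15, a Sox2 relative, had 6.63 and 11.04 FPKM with Cdk9-DN, against 19.5 and 18.6 FPKM in control cells (log2 difference -1.06, adjusted p = 0.021), and its adjusted p was 0.0946 and 0.0719 without control replicate 1 and 2. Nanog, a core factor of the network, stood at 6.24 FPKM in 1 Cdk9-DN library, against 11.5 FPKM in 1 control library, and did not pass (log2 difference -0.79, adjusted p = 0.0503). Nr0b1 (Dax1), a nuclear receptor of embryonic stem cells, went the other way. It had 10.4 and 11.4 FPKM with Cdk9-DN, against 4.29 and 3.91 FPKM in control cells (log2 difference 1.22, SE 0.0891, adjusted p = 0.000165), with both Cdk9-DN libraries above both control libraries. Without control replicate 1, or without control replicate 2, 4 members of the list passed as lower, and without control replicate 2 a further member passed as higher, 2 in all.

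Immediate early genes, which respond to growth factors within minutes, were mostly lower. Of 25 tested, 17 passed as lower and 3 as higher, with a median of -0.57, against 20.0% in each direction over all protein-coding genes. The AP-1 members Junb, Jund, Jun and Fosl2 were among the lower ones. Gadd45b, a stress-inducible growth arrest gene, had 37.4 FPKM in 1 Cdk9-DN library, against 134 and 135 FPKM in control cells (log2 difference -1.82, adjusted p = 0.000165). Maff, a small Maf factor, had 20.2 FPKM in 1 Cdk9-DN library, against 67.9 and 70.7 FPKM in control cells (log2 difference -1.73, adjusted p = 0.00372). Plaur, the urokinase receptor, had 23.3 FPKM in 1 Cdk9-DN library, against 62.9 and 57.2 FPKM in control cells (log2 difference -1.32, adjusted p = 0.00151). For all of these the single Cdk9-DN value lay below both control values. The 3 higher ones were Egr1, Zfp36l1 and Rhob, chosen for mention after their values were seen. Egr1, a zinc finger factor induced by serum, had 17.7 and 18.5 FPKM with Cdk9-DN, against 12.4 and 13.1 FPKM in control cells (log2 difference 0.47, adjusted p = 0.00232). Without Cdk9-DN replicate 2, 10 of the 18 members then tested passed as lower.

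Feedback inhibitors of MAP kinase signalling split in direction. Of 8 tested, 4 passed as lower and 1 as higher, with a median of -0.40, against 20.0% in each direction over all protein-coding genes. Dusp5, a nuclear phosphatase of ERK, had 8.03 and 7.41 FPKM with Cdk9-DN, against 32.4 and 34.6 FPKM in control cells (log2 difference -1.98, SE 0.107, adjusted p = 4.58e-05). Ier3, an early response gene, had 15.0 and 15.3 FPKM with Cdk9-DN, against 41.1 and 33.7 FPKM in control cells (log2 difference -1.25, adjusted p = 0.00105). The control libraries were clearly the higher ones in both. Errfi1 and Phlda1 also passed as lower, and Spry2, a Sprouty inhibitor, passed as higher (log2 difference 0.36, adjusted p = 0.0197). Dusp6, the cytoplasmic ERK phosphatase, had 25.4 FPKM in 1 Cdk9-DN library, against 26.1 and 25.8 FPKM in control cells, and did not pass. By limma, 0 members passed as higher without Cdk9-DN replicate 1, control replicate 1 or control replicate 2.

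Targets of TGF-beta and YAP gave 5 lower and 3 higher of 10 tested (median -0.34), against 20.0% in each direction over all protein-coding genes. Cyr61, a matricellular protein induced by YAP, had 70.9 and 67.6 FPKM with Cdk9-DN, against 221 FPKM in 1 control library (log2 difference -1.66, adjusted p = 0.000294). Ctgf, its relative, had 196 and 193 FPKM with Cdk9-DN, against 376 FPKM in 1 control library (log2 difference -0.95, adjusted p = 8.44e-05). Ankrd1, a muscle ankyrin repeat protein used as a YAP readout, had 1.29 and 1.31 FPKM with Cdk9-DN, against 4.56 and 4.77 FPKM in control cells (log2 difference -1.30, adjusted p = 0.00158). The list's higher members were Nov, Inhbb and the receptor gene Tgfbr2, the last at 12.1 and 11.7 FPKM with Cdk9-DN, against 8.76 and 8.38 FPKM in control cells. The sign of the median depended on the libraries kept, at 0.19 without Cdk9-DN replicate 2 and 0.11 without control replicate 1.

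BMP pathway genes gave 7 lower and 3 higher of 14 tested (median -0.51), against 20.0% in each direction over all protein-coding genes. Among the ligands, Bmp2 had 0.996 and 1.46 FPKM with Cdk9-DN, against 3.58 and 3.50 FPKM in control cells (log2 difference -1.03, adjusted p = 0.00166). Among the targets, Id1, an inhibitor of differentiation factors, had 185 and 172 FPKM with Cdk9-DN, against 347 and 331 FPKM in control cells (log2 difference -0.92, SE 0.0561, adjusted p = 0.00128). The groups stood apart in both genes. Gdf15, a distant BMP relative induced by stress, was lower at 1.83 and 1.39 FPKM with Cdk9-DN, against 6.51 and 5.85 FPKM in control cells (log2 difference -1.46, adjusted p = 0.000921). The extracellular inhibitors did not move together: Nog was lower (log2 difference -0.94, adjusted p = 0.0133), while Grem1 was higher (0.29, adjusted p = 0.0097). Without Cdk9-DN replicate 2, 1 member passed as higher, and without control replicate 2, 4 passed as lower. The adjusted p of Nog was 0.0698 without Cdk9-DN replicate 1 and 0.0592 without control replicate 2.

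The Wnt pathway list held 10 higher and 4 lower genes among 21 tested (median 0.34), against 20.0% in each direction over all protein-coding genes. Gpc4, a heparan sulfate proteoglycan that modulates Wnt signals, had 58.0 and 58.1 FPKM with Cdk9-DN, against 32.4 and 33.6 FPKM in control cells (log2 difference 0.80, SE 0.0358, adjusted p = 5.92e-05). Dkk2, a secreted Wnt modulator, had 15.5 FPKM in 1 Cdk9-DN library, against 6.53 and 6.89 FPKM in control cells (log2 difference 1.10, adjusted p = 0.00045). Sfrp4, a secreted Frizzled decoy, had 9.17 FPKM in 1 Cdk9-DN library, against 3.46 and 4.24 FPKM in control cells (log2 difference 1.07, adjusted p = 0.00351). In each of these the Cdk9-DN values lay above both control values. The ligands divided, with Wnt2 higher (log2 difference 1.05, adjusted p = 0.0341) and Wnt7a, Wnt9a and Wnt4 lower (-0.83, -0.71 and -0.61). The receptors Fzd5, Fzd8 and Fzd1 were higher, with log2 differences of 0.68, 0.58 and 0.49, and Fzd7 was lower at -0.21. Over the 15 list members with a value in all 4 day 10 libraries, 7 passed as higher and 4 as lower (median 0.12). From the day 10 libraries alone, 1 of 13 passed as higher and 2 as lower, with a median of 0.005, so the upward lean was not kept there. The members that passed as higher were 5, 6 and 6 without Cdk9-DN replicate 1, Cdk9-DN replicate 2 and control replicate 1.

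**Figure D3:**
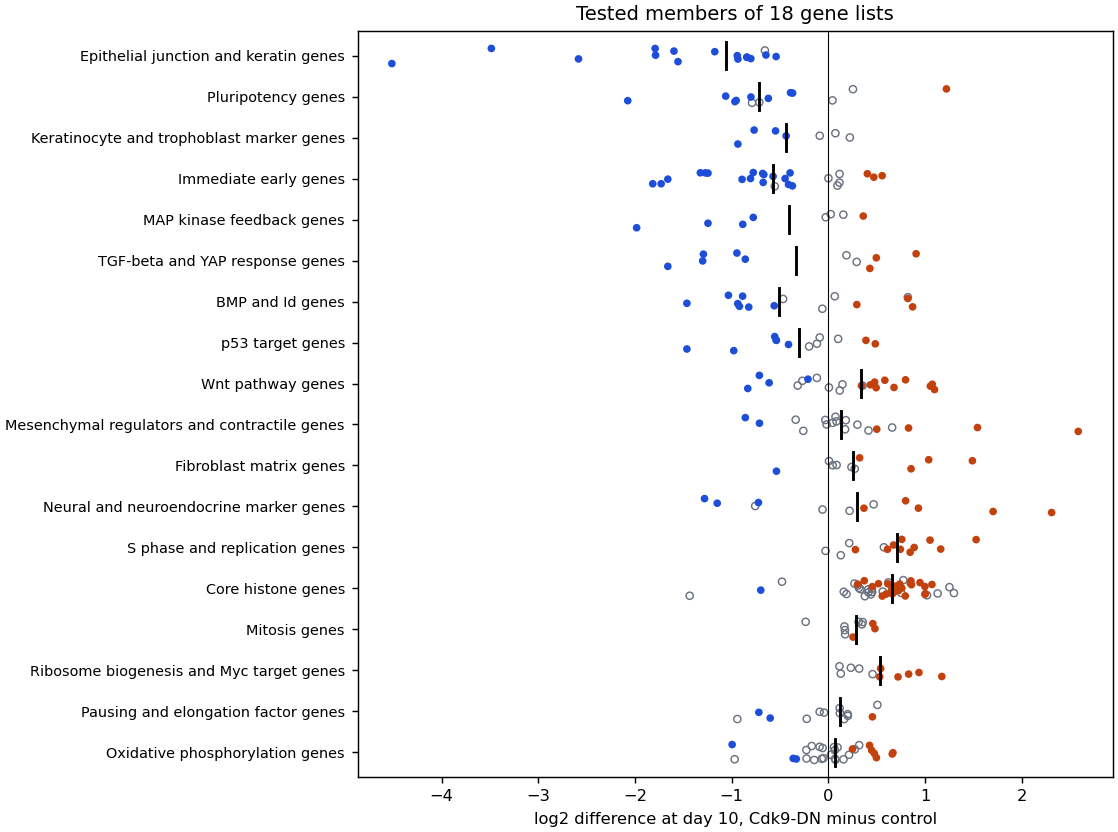
Log2 differences at day 10, Cdk9-DN minus control, for the tested members of 18 gene lists, 1 point per gene. Filled orange and blue points passed the test as higher and lower, open points did not pass, and the black bar is the median of the list. The epithelial list lies almost wholly on the negative side (15 of 16 lower), and the replication and core histone lists on the positive side (10 of 14 and 26 of 50 higher).

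Most replication genes that could be tested were higher with Cdk9-DN. Their list has 56 members, of which 19 were found in the series. Of 14 S phase genes tested, 10 passed as higher and 0 as lower, with a median of 0.71, against 20.0% higher over all protein-coding genes. Mcm2, a subunit of the replicative helicase, had 45.8 and 42.2 FPKM with Cdk9-DN, against 19.3 and 18.97 FPKM in control cells (log2 difference 1.16, SE 0.0566, adjusted p = 0.000239). Its partners Mcm3 (1.05), Mcm4 (0.85) and Mcm6 (0.76) were higher as well. Lrr1, a substrate receptor of a ubiquitin ligase acting at the replisome, had 19.01 and 18.5 FPKM with Cdk9-DN, against 6.73 and 5.08 FPKM in control cells (log2 difference 1.53, SE 0.201, adjusted p = 0.00185). The groups were far apart in Mcm2 and Lrr1. Dtl, which targets licensing factors for destruction, had 11.99 and 12.8 FPKM with Cdk9-DN, against 6.24 FPKM in 1 control library (log2 difference 0.89, adjusted p = 0.00759). Msh6, Rpa3, Gins3 and Dut did not pass, and Dut was listed at 0 in 3 of the 4 libraries. Without control replicate 1, 6 of 10 members then tested passed as higher.

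Core histone genes, whose transcripts are made in S phase, gave 26 higher and 1 lower among 50 tested (median 0.66). The share higher was 14.5% over all genes tested and 20.0% over protein-coding genes. The log2 differences of the higher members ran from 0.30 to 1.07. Hist1h3b had 3.35 and 2.94 FPKM with Cdk9-DN, against 1.18 and 0.786 FPKM in control cells (log2 difference 1.07, SE 0.202, adjusted p = 0.00826). Hist2h3c2 had 3.58 and 3.57 FPKM with Cdk9-DN, against 1.34 and 1.23 FPKM in control cells (log2 difference 1.002, adjusted p = 0.000742). Neither pair of groups overlapped. Hist2h2be was the member that passed as lower, at 1.24 and 1.16 FPKM with Cdk9-DN, against 2.34 and 2.81 FPKM in control cells (log2 difference -0.70, adjusted p = 0.0029), and is named after its values were seen. Copies of a histone gene are near-identical, Hist1h2ao and Hist1h2ap had the same values in every day 10 library, and reads may be split between copies. Histone transcripts mostly lack a poly(A) tail, and how the RNA was selected for the libraries is not given in the sources used here. In the absence of Cdk9-DN replicate 1, or of control replicate 2, 13 members passed as higher, and without Cdk9-DN replicate 2, 17 did. The lower members were 2 without Cdk9-DN replicate 1. Of 5 linker histones tested, 1 passed, Hist1h1e (0.34, adjusted p = 0.0186), and its adjusted p was 0.0743 without Cdk9-DN replicate 1, 0.0774 without Cdk9-DN replicate 2 and 0.0843 without control replicate 2.

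Of 10 mitosis genes tested, 3 passed as higher and 0 as lower (median 0.28), against 20.0% higher over all protein-coding genes tested. Incenp, of the chromosomal passenger complex, had 25.1 and 26.7 FPKM with Cdk9-DN, against 18.97 and 18.2 FPKM in control cells (log2 difference 0.46, adjusted p = 0.00505). Plk1, a mitotic kinase, did not pass (0.17, adjusted p = 0.17). Without Cdk9-DN replicate 1, or without Cdk9-DN replicate 2, 1 mitosis gene passed as higher, and without control replicate 2, 1 passed as lower. Among 4 cyclin and inhibitor genes, the cyclin-dependent kinase inhibitors Cdkn1b, Cdkn2b and Cdkn2d were lower. Cdkn1b (p27) had 21.8 and 22.8 FPKM with Cdk9-DN, against 46.2 and 44.0 FPKM in control cells (log2 difference -0.98, SE 0.0522, adjusted p = 0.000905), with the groups well apart. The adjusted p of Cdkn2d was 0.0866 without control replicate 1 and 0.0508 without control replicate 2. Gas1, a growth arrest protein, was higher (0.59, adjusted p = 0.0296), a call lost without any 1 day 10 library (adjusted p = 0.0537 to 0.137).

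Among 11 ribosome biogenesis and Myc target genes tested, 6 passed as higher and 0 as lower (median 0.53). Over all protein-coding genes tested, 20.0% were higher and 20.0% lower. Rrs1, an assembly factor of the large subunit, had 44.3 and 45.2 FPKM with Cdk9-DN, against 18.8 and 19.8 FPKM in control cells (log2 difference 1.17, SE 0.0429, adjusted p = 7.58e-06). Ddx21, a nucleolar RNA helicase, had 46.7 FPKM in 1 Cdk9-DN library, against 24.4 and 23.4 FPKM in control cells (log2 difference 0.94, adjusted p = 0.000334). Nhp2, a protein of box H/ACA particles, had 208 and 214 FPKM with Cdk9-DN, against 126 and 111 FPKM in control cells (log2 difference 0.83, adjusted p = 0.00499). In each gene the Cdk9-DN values were the higher ones. Genes of the finished ribosome gave 1 higher and 3 lower of 10 tested (median -0.20), with Rpl38 lower (-0.62, adjusted p = 0.00479), and 1 was lower without Cdk9-DN replicate 1 or replicate 2. Rps29 (-0.48, adjusted p = 0.0323) turned to 0.06 under quantile normalization, and its adjusted p was 0.146 without Cdk9-DN replicate 1, 0.0695 without Cdk9-DN replicate 2 and 0.127 without control replicate 1.

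Of 18 mesenchymal regulators and contractile genes tested, 4 passed as higher and 2 as lower (median 0.13). Of 10 fibroblast matrix genes, 4 passed as higher and 1 as lower (median 0.26). Over all protein-coding genes tested, 20.0% were higher and 20.0% lower. Foxd1, a forkhead factor of stromal mesenchyme, had 138 and 133 FPKM with Cdk9-DN, against 17.1 and 27.8 FPKM in control cells (log2 difference 2.58, SE 0.226, adjusted p = 0.000681), 6.05 times the control level. Both Cdk9-DN libraries stood far above the control libraries, which differed from each other. Cdh2 (N-cadherin) had 9.35 FPKM in 1 Cdk9-DN library, against 2.57 and 2.54 FPKM in control cells (log2 difference 1.54, adjusted p = 0.00042). Twist1, a regulator of mesenchymal identity, had 23.6 and 22.2 FPKM with Cdk9-DN, against 11.6 and 13.4 FPKM in control cells (log2 difference 0.83, adjusted p = 0.018), and its adjusted p was 0.0833 without Cdk9-DN replicate 1, 0.0624 without Cdk9-DN replicate 2 and 0.0888 without control replicate 1. Snai1, which represses epithelial genes, had 7.71 and 7.68 FPKM with Cdk9-DN, against 9.83 and 9.01 FPKM in control cells, and did not pass (-0.26, adjusted p = 0.167). Dcn (decorin), a matrix proteoglycan, had 12.5 and 13.997 FPKM with Cdk9-DN, against 3.73 and 4.42 FPKM in control cells (log2 difference 1.49, SE 0.116, adjusted p = 0.000216). Cd248, a fibroblast surface protein, had 24.2 and 23.9 FPKM with Cdk9-DN, against 11.6 and 10.8 FPKM in control cells (log2 difference 1.04, adjusted p = 0.000373). Thy1, a fibroblast surface marker, did not pass at 17.99 and 16.8 FPKM with Cdk9-DN, against 16.3 FPKM in 1 control library, and the gelatinase Mmp2 was lower (-0.54, adjusted p = 0.0096). Without Cdk9-DN replicate 1, 1 mesenchymal gene passed as higher, and without Cdk9-DN replicate 2 or control replicate 1, 2 did. Without Cdk9-DN replicate 2, 2 matrix genes passed as higher, and without control replicate 1, 0 passed as lower by limma. The summed level was 199 and 191 FPKM with Cdk9-DN, against 68.0 and 84.7 FPKM in control cells, over 14 mesenchymal genes listed in all 4 libraries. Without Foxd1, which held most of the Cdk9-DN sum, it was 60.8 and 57.98 FPKM with Cdk9-DN, against 50.9 and 56.9 FPKM in control cells, over 13 genes. For 5 matrix genes it was 39.9 and 41.3 FPKM with Cdk9-DN, against 17.02 and 17.04 FPKM in control cells. These 5 of the 10 tested were listed in all 4 libraries. Dcn and Cd248 held most of each of these sums, and a sum without them was not taken.

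The genes with the highest differences came from several classes. Nefl, the light neurofilament, had 13.3 and 13.5 FPKM with Cdk9-DN, against 2.02 and 1.798 FPKM in control cells (log2 difference 2.31, SE 0.0778, adjusted p = 4.96e-06). Pcdh10, a protocadherin, had 5.67 and 5.75 FPKM with Cdk9-DN, against 0.678 and 1.20 FPKM in control cells (log2 difference 1.81, adjusted p = 0.000948). Insm1, a zinc finger factor of neuroendocrine cells, had 5.12 and 5.54 FPKM with Cdk9-DN, against 0.865 and 1.02 FPKM in control cells (log2 difference 1.70, adjusted p = 0.000279). All Cdk9-DN values of these genes exceeded the control values, as the rule that named them required. Csn1s1, a casein, had 18.4 and 17.9 FPKM with Cdk9-DN, against 5.62 and 4.45 FPKM in control cells (log2 difference 1.67, adjusted p = 0.000552). Ndn (Necdin), a paternally expressed growth suppressor, had 40.7 and 37.0 FPKM with Cdk9-DN, against 12.2 and 13.6 FPKM in control cells (log2 difference 1.52, SE 0.0686, adjusted p = 1.98e-05). The remaining genes of the 15 highest were Pcdh7, Megf9, B3galt6, Shisa3, Peg12 and Fabp7, with log2 differences of 1.23 to 1.55. The adjusted p of Fabp7 was 0.0544 without Cdk9-DN replicate 2 and 0.0512 without control replicate 2. Pde12, a mitochondrial phosphodiesterase, had 9.95 and 10.5 FPKM with Cdk9-DN and was listed at 0 in both control libraries of day 10, although all libraries of days 4 and 5 that list it had 10.9 to 16.3 FPKM.

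Markers of other cell types were measured alongside, and their counts are read against 20.0% higher and 20.0% lower over all protein-coding genes. Of 12 neural and neuroendocrine genes tested, 5 passed as higher and 3 as lower (median 0.29), and the summed level of the 11 listed in all 4 libraries was 541 and 529 FPKM with Cdk9-DN, against 608 and 572 FPKM in control cells. Nefl and Insm1, above, were among the higher ones, while Npy, a neuropeptide, had 53.2 and 51.1 FPKM with Cdk9-DN, against 134 and 123 FPKM in control cells (log2 difference -1.28, adjusted p = 0.00528), a call lost with a pseudocount of 0.1 (adjusted p = 0.383). Nefm, the medium neurofilament that pairs with Nefl, was listed at 0 in both Cdk9-DN libraries and at 0.618 and 0.686 FPKM in the control libraries. Of 7 keratinocyte and trophoblast markers, 4 passed as lower and 0 as higher (median -0.44), with a summed level of 42.5 and 40.4 FPKM with Cdk9-DN, against 82.7 and 76.3 FPKM in control cells over 4 members. Sfn (stratifin) had 37.6 and 36.2 FPKM with Cdk9-DN, against 74.9 and 68.1 FPKM in control cells (log2 difference -0.94, adjusted p = 0.000327). Sfn thus held most of the summed level of these markers in each library, and the sum is mainly a value of this 1 gene. Krt5, a basal keratin, did not pass at 11.9 FPKM in 1 Cdk9-DN library, against 10.03 FPKM in 1 control library. Without control replicate 1, 3 keratinocyte or trophoblast markers were still tested, with a median of 0.07. Without control replicate 2, 2 were tested, with a median of -0.55. A marker that reached the filter only through the control libraries could pass only as lower. The endothelial claudin Cldn5 was lower (-1.27, adjusted p = 8.19e-05) and was 1 of 2 endothelial markers tested (median -0.78), with a summed level of 1.58 and 1.62 FPKM with Cdk9-DN, against 4.80 and 4.63 FPKM in control cells, and did not reach the level for testing without control replicate 1 or 2. Of 3 blood markers 0 passed by limma, among them Hbb-y with 42.3 and 47.5 FPKM with Cdk9-DN, against 45.2 and 41.5 FPKM in control cells. The part of other cell types in the differences above was not tested.

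Stress and inflammation lists held calls in both directions, as did all protein-coding genes tested, with 20.0% higher and 20.0% lower. Mt1 and Mt2, the metallothioneins that bind zinc, were higher, Mt1 at 281 and 276 FPKM with Cdk9-DN, against 149.9 and 133 FPKM in control cells (log2 difference 0.98, adjusted p = 0.000994). Mt2 had 125 FPKM in 1 Cdk9-DN library, against 47.5 and 46.5 FPKM in control cells (log2 difference 1.39, adjusted p = 0.00181). The brain metallothionein Mt3 was lower (-1.39, adjusted p = 0.0207), and its adjusted p was 0.102 without Cdk9-DN replicate 2, 0.0946 without control replicate 1 and 0.0587 without control replicate 2. The 14 metallothionein and oxidative stress genes gave 4 higher and 2 lower (median -0.06). Among 11 chemokine and cytokine genes, 3 were higher and 2 lower (median 0.34). Ccl2, which attracts monocytes, had 24.8 and 25.7 FPKM with Cdk9-DN, against 11.6 and 11.8 FPKM in control cells (log2 difference 1.05, adjusted p = 9.65e-05). Nfkbia, the inhibitor and target of NF-kappaB, had 30.0 and 29.3 FPKM with Cdk9-DN, against 59.9 and 60.8 FPKM in control cells (log2 difference -1.0002, adjusted p = 5.92e-05). Ccl2 and Nfkbia stood on opposite sides, each with groups that did not overlap. p53 targets were lower in 6 and higher in 2 of 12 tested (median -0.31), with the kinase Plk2 at 21.6 and 23.0 FPKM with Cdk9-DN, against 32.99 and 33.4 FPKM in control cells (log2 difference -0.56, adjusted p = 0.000231). Leaving out single libraries left 0 or 1 lower metallothionein and oxidative stress genes, 0 of them without Cdk9-DN replicate 2 or control replicate 2, and 1 lower chemokine gene without Cdk9-DN replicate 1, control replicate 1 or control replicate 2.

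The remaining lists are given by their counts, to be read against 20.0% higher and 20.0% lower over all protein-coding genes tested. Mitochondrial ribosomal proteins gave 5 higher and 3 lower of 24 (median 0.15), and oxidative phosphorylation genes 7 higher and 3 lower of 29 (median 0.07), with 1 to 3 higher when any 1 day 10 library was left out. Amino acid response and ER stress genes gave 3 higher and 4 lower of 12 (median -0.13), among them Atf4 at 99.7 and 104 FPKM with Cdk9-DN, against 158 FPKM in 1 control library (log2 difference -0.63, adjusted p = 0.0106). Heat shock genes gave 1 higher and 3 lower of 8 (median -0.07), with Hspa1a and Hspa1b near-identical. Hypoxia response genes gave 3 lower of 4 (median -0.70), with 0 lower without Cdk9-DN replicate 1 or control replicate 1, where 1 was tested, and 1 lower without Cdk9-DN replicate 2. Proteasome subunits gave 3 higher and 0 lower of 9 (median 0.23), imprinted genes 3 higher and 1 lower of 5 (median 0.78), and Hox genes 1 higher of 5 (Hoxd13, median 0.25). Interferon response genes gave 1 lower of 7 (Bst2, median -0.24), a call lost without Cdk9-DN replicate 1 (adjusted p = 0.082), without Cdk9-DN replicate 2 (0.0826) and, with 4 tested, without control replicate 1. Glycolysis gave 1 higher of 2 (Pgam1, median 0.19), and muscle and adipocyte markers 1 higher of 1 (Cebpa, 0.37). Endoderm and mesoderm markers gave 1 higher of 4 (Lama1, median 0.14). The adjusted p of Lama1 was 0.0628 without Cdk9-DN replicate 1, 0.129 without control replicate 1 and 0.0577 without control replicate 2, and that of Cebpa was 0.0675 without Cdk9-DN replicate 2 and 0.0597 without control replicate 2. With single libraries left out, mitochondrial ribosomal proteins gave 1 lower without any 1 of them and 3 higher without control replicate 1. Oxidative phosphorylation genes gave 0 lower without Cdk9-DN replicate 1 and 1 lower without control replicate 1. Amino acid response genes gave 2 lower without Cdk9-DN replicate 1, Cdk9-DN replicate 2 or control replicate 1. Heat shock genes gave 1 lower without Cdk9-DN replicate 2 or control replicate 1, and 0 higher without Cdk9-DN replicate 1 or control replicate 1. Proteasome subunits gave 1 higher without Cdk9-DN replicate 2, glycolysis 0 without control replicate 1, and imprinted genes 0 lower without Cdk9-DN replicate 1, control replicate 1 or control replicate 2. Endoderm and mesoderm markers gave 0 without any 1 day 10 library. Of the germ line and 2-cell stage markers, 0 reached the level for testing.

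Of 13 pausing and elongation factor genes tested, 1 passed as higher and 2 as lower (median 0.12). Over all protein-coding genes tested, 20.0% were higher and 20.0% lower. Ell2, an elongation factor that works with P-TEFb, had 5.84 FPKM in 1 Cdk9-DN library, against 9.14 and 11.5 FPKM in control cells (log2 difference -0.72, adjusted p = 0.0157). Mnat1, a subunit of the TFIIH kinase, had 13.9 and 15.9 FPKM with Cdk9-DN, against 23.8 and 22.4 FPKM in control cells (log2 difference -0.60, adjusted p = 0.0096). Its adjusted p was 0.0505 without Cdk9-DN replicate 1 and 0.0523 without control replicate 1. Leo1, of the PAF elongation complex, had 18.5 and 20.8 FPKM with Cdk9-DN, against 13.5 and 14.6 FPKM in control cells (log2 difference 0.46, adjusted p = 0.00741). The groups did not overlap in any of these. Without Cdk9-DN replicate 1, 0 passed as lower, and without control replicate 1, 1 did. 7SK, the small RNA that holds P-TEFb inactive, had 53.7 and 45.9 FPKM with Cdk9-DN, against 176 and 52.3 FPKM in control cells, and did not pass (adjusted p = 0.504).

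Whether the day 10 difference itself exceeded that of the earlier days was tested by contrasts of the Cdk9-DN effect between days, which share the day 10 libraries with the comparison above. The difference between day 10 and day 5 was called for 887 of 5485 genes (16.2%), 480 higher (8.75%) and 407 lower (7.42%), and that between day 10 and day 4 for 869 of 5523 genes (15.7%), 439 higher (7.95%) and 430 lower (7.79%). Among protein-coding genes the shares were 25.0% against day 5, with 11.7% higher and 13.2% lower, and 24.4% against day 4, with 11.5% higher and 12.9% lower. Of the protein-coding genes lower at day 10, 307 of 497 tested against day 5 also passed for the difference, and of those higher, 269 of 481. Against day 4 the counts were 309 of 498 and 266 of 483. Since both sides use the same day 10 libraries, these shares are descriptions. Without single libraries the day 10 minus day 5 count lay between 498 and 654, and the day 10 minus day 4 count between 508 and 691. At day 5 the genes called at day 10 had a median absolute log2 difference of 0.104 (lower genes) and 0.0971 (higher genes), against 0.104 for all protein-coding genes.

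**Figure D4:**
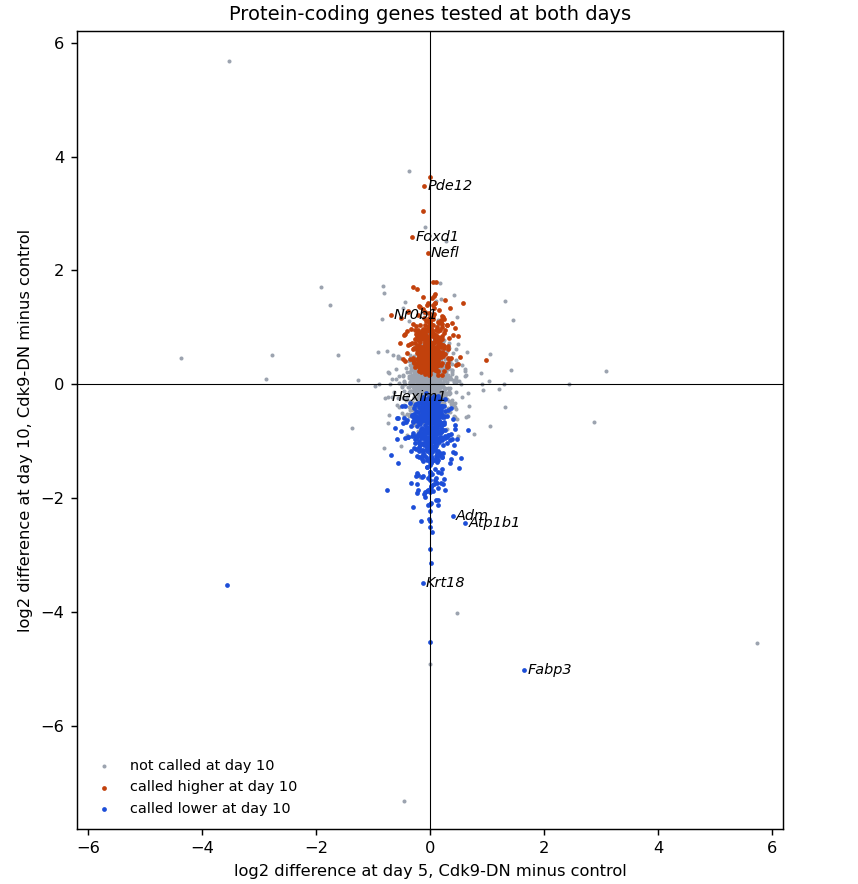
Log2 difference, Cdk9-DN minus control, at day 5 on the x axis and at day 10 on the y axis for protein-coding genes tested on both days. Orange marks genes called higher and blue genes called lower at day 10, and grey marks genes not called. The called genes spread along the y axis while their day 5 values stay near 0, with a median absolute difference of 0.104 and 0.0971 at day 5 for the lower and higher genes.

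Values at day 10 were set against all libraries of days 4 and 5 of the same vector, as a description with no test. For the 15 lower epithelial genes, the day 10 libraries lay above all earlier libraries in 13 genes with Cdk9-DN and in 14 genes in control cells. Krt18 stood at 0.574 to 0.883 FPKM with Cdk9-DN and at 0.426 to 0.921 FPKM in control cells on days 4 and 5, below the day 10 values of both vectors. For the 8 lower pluripotency genes, 5 were above the earlier days with Cdk9-DN and 7 in control cells. Among all protein-coding genes called lower, day 10 lay above the earlier days in 286 of 511 genes with Cdk9-DN and in 426 of 509 in control cells. These genes were chosen as lower at day 10, which bears on the difference between the vectors' counts, so nothing is read from it.

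For the 17 lower immediate early genes, day 10 lay above the earlier days in 5 genes with Cdk9-DN and below them in 5. In control cells it lay above them in 15. For 9 higher replication genes with values, day 10 lay below the earlier days in 4 genes with Cdk9-DN and in 8 in control cells. For the 26 higher core histone genes the counts below were 2 with Cdk9-DN and 23 in control cells, and for the 6 higher ribosome biogenesis genes they were 4 and 6. Mcm2 had a mean of 46.0 FPKM at day 4 and 58.0 FPKM in 1 library at day 5 with Cdk9-DN, against a mean of 48.5 FPKM and 59.0 FPKM in 1 library in control cells, so that its Cdk9-DN values of day 10 were near those of day 4. Among all protein-coding genes called higher at day 10, the day 10 libraries lay below the earlier ones in 217 of 505 genes with Cdk9-DN and in 416 of 508 in control cells. The genes counted here were likewise chosen by their direction at day 10. That choice bears on the difference between the vectors' counts, so nothing is read from it.

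**Figure D5:**
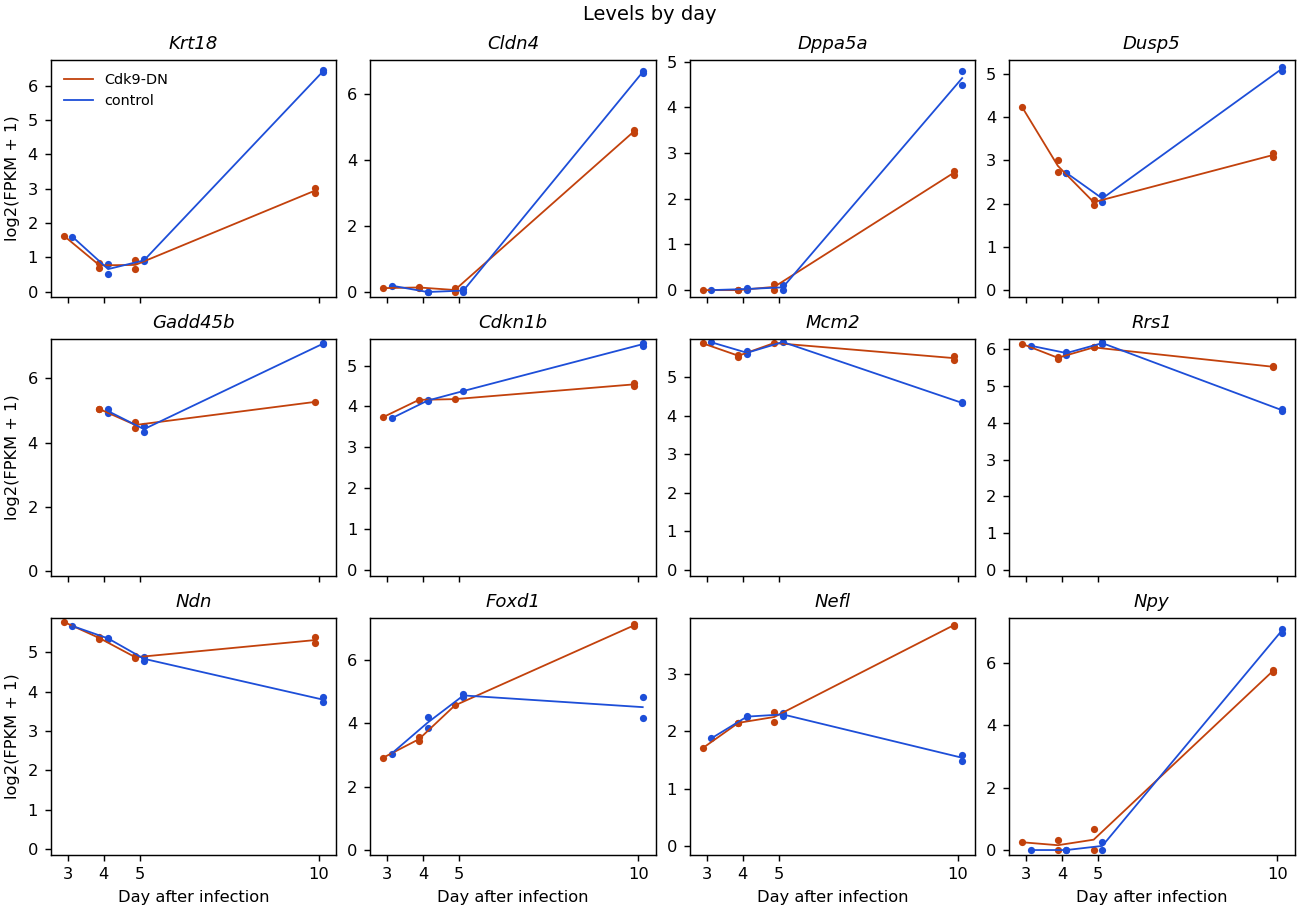
log2(FPKM + 1) by day after infection for 12 genes, with Cdk9-DN in orange drawn slightly to the left and control in blue to the right of each day. Points are libraries and lines join the means, with 1 library per vector on day 3 and at most 2 on the other days. The vectors lie close together on days 3 to 5, less so for Foxd1, which was lower with Cdk9-DN at day 4. They lie apart on day 10. Krt18, Cldn4, Dppa5a and Npy rise in both vectors, and Mcm2 and Rrs1 are lower at day 10 in control cells than on the earlier days.

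Foxd1 was higher at day 10 than before with Cdk9-DN. It stood at 9.77 and 10.9 FPKM at day 4 and at 22.7 FPKM in 1 library at day 5 with Cdk9-DN, against 13.3 to 29.4 FPKM in control cells on these days. Nefl likewise had means of 3.43 and 3.77 FPKM with Cdk9-DN on days 4 and 5, against 3.78 and 3.91 FPKM in control cells, all below its 13.3 and 13.5 FPKM with Cdk9-DN at day 10. The effect of Cdk9-DN on Foxd1 was larger at day 10 than at day 5 by 2.90 (adjusted p = 0.00404) and than at day 4 by 3.10 (adjusted p = 0.00238). For Nefl these differences were 2.35 (adjusted p = 3.99e-05) and 2.42 (adjusted p = 4.11e-05). Ndn, by contrast, had 40.7 and 37.0 FPKM with Cdk9-DN at day 10, close to its day 4 means of 40.2 FPKM with Cdk9-DN and 40.0 FPKM in control cells, and was lower in control cells at day 10. Dusp5 had means of 6.36 and 3.10 FPKM with Cdk9-DN on days 4 and 5, against 5.55 and 3.36 FPKM in control cells, so that its control level at day 10 was the one that stood out.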

How the data were processed

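The labels' protocols describe RNA isolated with TRIzol and libraries made by standard Illumina methods. The deposited values are FPKM per gene and library, made by the authors with CASAVA 1.8.2, TopHat2 2.0.10 and Cufflinks 2.2.1 on builds mm9 and NCBIM37, per the submitters' processing notes. The annotation, the strand setting and the filter that leaves genes unlisted are not given in the sources used here, and a gene not listed in a library was treated as missing.

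Values were taken as log2(FPKM + 1). The fit used the 12 libraries of day 4, day 5 and day 10, and genes that reached 1 FPKM in at least 2 of them. It was made with limma 3.58.1 (R 4.3.3), with a mean for each of the 6 groups, an intensity trend of the variance and at least 2 residual degrees of freedom. A group with 1 listed library is assumed to vary like the others. The prior had 1.15 degrees of freedom. Tests were two-sided with Benjamini-Hochberg adjustment over all genes of a contrast, and called means an adjusted p under 0.05. Python 3.11.15 with pandas 2.3.3 was used for summaries, and GENCODE M21 gave gene types and exons. Depth was derived from the deposited confidence bounds and covers counting error only. The scripts were tested on simulated data.

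The comparison, its members and the 38 gene lists were chosen with earlier results of these data known. Many list members had no value or did not reach the filter. Tested were 16 of 47 epithelial, 13 of 51 pluripotency, 14 of 56 replication, 11 of 59 ribosome biogenesis and 10 of 49 fibroblast matrix members. List counts have no test and are read against the percentage of all genes called. Genes were named by rule: the 15 highest and 15 lowest called protein-coding genes that had a mean of at least 5 FPKM in either group, a value in all 4 day 10 libraries and groups that did not overlap, leaving out unnamed gene models and families of near-identical copies (histone and Sprr2 genes), up to 4 called members of each list, the delivered factors, and the 5 highest and 5 lowest genes of each difference between days. Others named were chosen after their values were seen. The rule named 134 genes.

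Alternatives were other pseudocounts, filters, scalings, complete listing, a replicate block, single libraries left out, day 10 alone, protein-coding genes alone and, added after seeing the data, zeros as missing, a crossed block and left-out libraries of days 4 and 5. The single libraries of day 3 were plotted and left out of every test. Results for a few genes, and for 1 gene list, are not reported here.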

Additional observations from a re-analysis of the deposited data

Results flagged for a closer look

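The effect of Cdk9-DN differed between days for the genes below, by the contrast of the effects in the limma fit. The values are differences of log2 differences, later day minus earlier day, and each passed at an adjusted p under 0.05. Between day 10 and day 5, the effect was more negative at day 10 by -3.35 for Krt18, -3.04 for Atp1b1, -2.70 for Adm, -2.51 for Spink3 and -2.40 for Cldn9. It was more positive at day 10 by 3.59 for Pde12, 2.90 for Foxd1, 2.35 for Nefl, 2.01 for Insm1 and 1.92 for Nr0b1.

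Between day 10 and day 4, the effect was more negative at day 10 by -3.60 for Krt18, -2.69 for Atp1b1, -2.61 for Cldn9, -2.51 for Spink3 and -2.37 for Gcnt3. It was more positive at day 10 by 3.55 for Pde12, 3.10 for Foxd1, 2.42 for Nefl, 2.08 for Lrr1 and 1.95 for Csn1s1. Both contrasts use the same day 10 libraries, so a gene in both sets is not counted as seen again. Krt18, Atp1b1, Cldn9, Spink3, Pde12, Foxd1 and Nefl were in both. For Pde12 the value rests on day 10 control libraries listed at 0, which may be failed estimates. For Spink3 both values equal its day 10 difference, so they add nothing to it.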

How the results depend on the processing

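The count of genes called at day 10 was 1658 in the fit reported. It was 930 to 1157 when a day 10 library was left out and 456 from the day 10 libraries alone, and under the other alternatives it lay between 1227 and 1833. The day 10 minus day 5 count of 887 was 530 over genes listed in all libraries, 498 to 654 without a day 10 or day 5 library and otherwise 670 to 953. The day 10 minus day 4 count of 869 was 561 over genes listed in all libraries, 508 to 691 without a day 10 or day 4 library and otherwise 652 to 934. The 216 calls within the gene lists became 142 to 152 without a day 10 library and 83 from day 10 alone. Fewer libraries or genes enter these fits by construction. Hbb-y, not called at 0.05, ranged from -0.033 to 0.13 without a day 10 library and was at -0.011 without control replicate 2. Rps29, called at -0.48, was at 0.060 under quantile normalization, and the cause was not tested. Of the 132 named and called genes, 83 kept call and direction in every setting with a value, 49 lost the call in at least 1 and 1 changed direction. Atp1b1 lost its difference between days with a pseudocount of 0.1 (adjusted p = 0.0599 against day 5 and 0.126 against day 4). Replicate numbers were not taken to pair the libraries, since the pairs differed: same-numbered libraries had correlations of deviations of -0.146 at day 10, 0.244 at day 5 and 0.253 at day 4. With the replicate block 1397 genes were called at day 10, 705 for day 10 minus day 5, 719 for day 10 minus day 4 and 188 within the lists. With the day 10 numbers crossed, a choice made after seeing the data, the counts were 1424, 683, 699 and 198. Depth of 11.4 to 13.0 M fragments limits genes near 1 FPKM, and genes with many exons were often not listed.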

Other observations

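The genes below were picked after their values were seen and are described one by one, with no statement on a group. Sprr2d, a small proline-rich envelope protein, had 4.79 and 4.57 FPKM with Cdk9-DN, against 20.6 and 20.2 FPKM in control cells (log2 difference -1.92, adjusted p = 1.58e-05 by limma). Its near-identical relatives Sprr2f, Sprr2h and Sprr2i were lower by log2 differences of -1.68, -1.20 and -1.05, and reads may be split among them. Alox12b, a lipoxygenase of the skin barrier, had 4.62 FPKM in 1 Cdk9-DN library, against 25.7 and 25.1 FPKM in control cells (log2 difference -2.23, adjusted p = 3.01e-05). Ppl (periplakin) had 5.32 and 5.07 FPKM with Cdk9-DN, against 21.5 FPKM in 1 control library (log2 difference -1.86, adjusted p = 0.000368). In each of these genes the control values were the higher ones. Lor and Sprr1b, also envelope genes, did not pass, at 1.33 and 1.52 FPKM against 1.58 FPKM in 1 control library for Lor, and at 1.69 and 2.21 FPKM against 1.797 FPKM in 1 control library for Sprr1b.

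Hbegf, a ligand of the EGF receptor, had 8.47 FPKM in 1 Cdk9-DN library, against 30.3 and 31.6 FPKM in control cells (log2 difference -1.75, adjusted p = 0.000247), and Tgfa, another of its ligands, had 2.38 and 2.05 FPKM with Cdk9-DN, against 5.09 and 5.83 FPKM in control cells (log2 difference -1.01, adjusted p = 0.0033). Alox15, a lipoxygenase, had 3.09 and 2.68 FPKM with Cdk9-DN, against 33.1 FPKM in 1 control library (log2 difference -3.14, adjusted p = 1.51e-05). Arg1 (arginase) had 10.2 and 10.6 FPKM with Cdk9-DN, against 42.7 and 37.6 FPKM in control cells (log2 difference -1.85, adjusted p = 6.37e-05). Dhrs13, where an exact 0 may be a failed estimate, was listed at 0 in 1 Cdk9-DN library and at 10.6 FPKM in 1 control library at day 10, and it passed as lower on days 4, 5 and 10 alike.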
